A study of Schizosaccharomyces pombe with 2 samples.

Results

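Binding of condensin was described at 10 cell wall genes of fission yeast (Schizosaccharomyces pombe). These are ecm33, the glucanosyltransferase genes gas1, gas2, gas4 and gas5, the glucosidase genes exg1, exg2 and exg3, and the cell wall protein genes psu1 and psu2. They were taken by name from the 5113 protein-coding genes annotated on chromosomes I, II and III, and all 10 were found. Condensin was mapped through Cnd2, its kleisin subunit, by chromatin immunoprecipitation and sequencing (ChIP-seq). Strain YUK421 carries Cnd2 joined to an HA tag. It was grown in EMM with glutamate, blocked in mitosis by 5 µg/mL thiamine and fixed with 0.5% formaldehyde at 25 °C (30 min). Both groups were this strain in this state. One was the anti-HA immunoprecipitate, with 25933013 fragments kept, and the other its input, with 54272630 kept, at 1 library each. What thiamine acts on in this strain is not given in the sources used here, and cells without the tag were not analysed here. No value has a replicate check, so values are described and no test is given.

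The fission yeast wall is a mesh of beta-glucan and alpha-glucan coated with galactomannan. Synthases at the plasma membrane spin the glucan chains. Gas proteins, held at the cell surface by a lipid anchor, cut a beta-glucan chain and join the piece to another chain. Exg proteins are beta-glucan hydrolases, and Psu proteins belong to the SUN family of wall proteins. Ecm33 is a lipid-anchored wall protein needed for a normal wall. A dividing cell also builds a septum and then dissolves part of it, so wall remodelling is part of the end of each cell cycle. Condensin is a ring-shaped complex that folds chromosomes into their compact mitotic form.

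Condensin stood at exactly 5 of the 10 genes, and at 3 of them among the highest values of the whole genome. The peak past the end of ecm33 had a fold enrichment of 24.4, that at gas1 22.1 and that at exg1 18.5, which placed them at ranks 1, 2 and 4 among the 664 peaks on the chromosomes. A further glucanosyltransferase gene, gas5, had a 5.92-fold peak and psu1 a 2.18-fold peak. Their paralogues gas2, gas4, exg2, exg3 and psu2 had none within reach. Fold enrichment is the authors' peak caller's ratio of ChIP fragments to the local input background at the summit, the highest point of a peak. A gene was counted as near a summit when the summit lay inside the annotated gene or within 500 bp of it. Peak coordinates are those of the authors, whose build was ASM294v2, and gene positions are those of ASM294v3.

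The stretches of chromosome just past the 3′ ends of ecm33, gas1 and exg1 lie within the 3 strongest of these peaks, and that past exg3, a paralogue with no peak, is given for contrast. Each runs from the base after the annotated 3′ end to the next annotated coding gene, or for 300 bases, on the strand of the gene, and comes from the RefSeq assembly ASM294v3. The positions are I:1569450-1569612 for ecm33 (minus strand), I:4878454-4878578 for gas1 (minus), II:3516568-3516867 for exg1 (plus) and II:2976605-2976697 for exg3 (plus). Capitals mark AATAAA, the common polyadenylation signal, or TTTATT, the same signal read on the other strand.
ecm33: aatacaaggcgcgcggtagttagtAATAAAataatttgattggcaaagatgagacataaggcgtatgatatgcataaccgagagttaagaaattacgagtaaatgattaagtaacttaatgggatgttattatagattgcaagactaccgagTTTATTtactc
gas1: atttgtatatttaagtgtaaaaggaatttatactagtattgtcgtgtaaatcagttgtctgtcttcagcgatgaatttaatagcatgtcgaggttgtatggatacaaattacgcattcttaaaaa
exg1: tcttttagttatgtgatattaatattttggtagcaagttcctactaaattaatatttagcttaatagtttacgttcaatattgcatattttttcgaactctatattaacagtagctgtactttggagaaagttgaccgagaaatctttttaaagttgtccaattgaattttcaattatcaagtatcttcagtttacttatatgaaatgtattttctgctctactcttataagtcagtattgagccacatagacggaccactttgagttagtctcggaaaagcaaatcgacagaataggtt
exg3: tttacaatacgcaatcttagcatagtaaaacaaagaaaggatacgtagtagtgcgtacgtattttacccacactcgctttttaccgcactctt

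All these stretches are rich in A and T. Their GC content was 33.1% at ecm33 (163 bases), 29.6% at gas1 (125 bases), 30.0% at exg1 (300 bases) and 37.6% at exg3 (93 bases). The ecm33 stretch held both marked sequences, AATAAA starting at its base 25 and TTTATT at base 153, and the others held neither. All of these letters lie past the annotated 3′ end, and whether they act as signals for any gene was not tested. Over the first 150 bases past the 3′ end, the letters AATAAA or TTTATT, which cannot overlap each other, occurred at 2 of the 5 genes with a peak and at 3 of the 5 without. They occurred at 44.4% of all coding genes. GC content in that window had a median of 29.3% both at the 5 genes with a peak and at the 5 without, with overlapping ranges, against 30.7% over all coding genes. Neither measure set the genes with a peak apart.

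**Figure D1:**
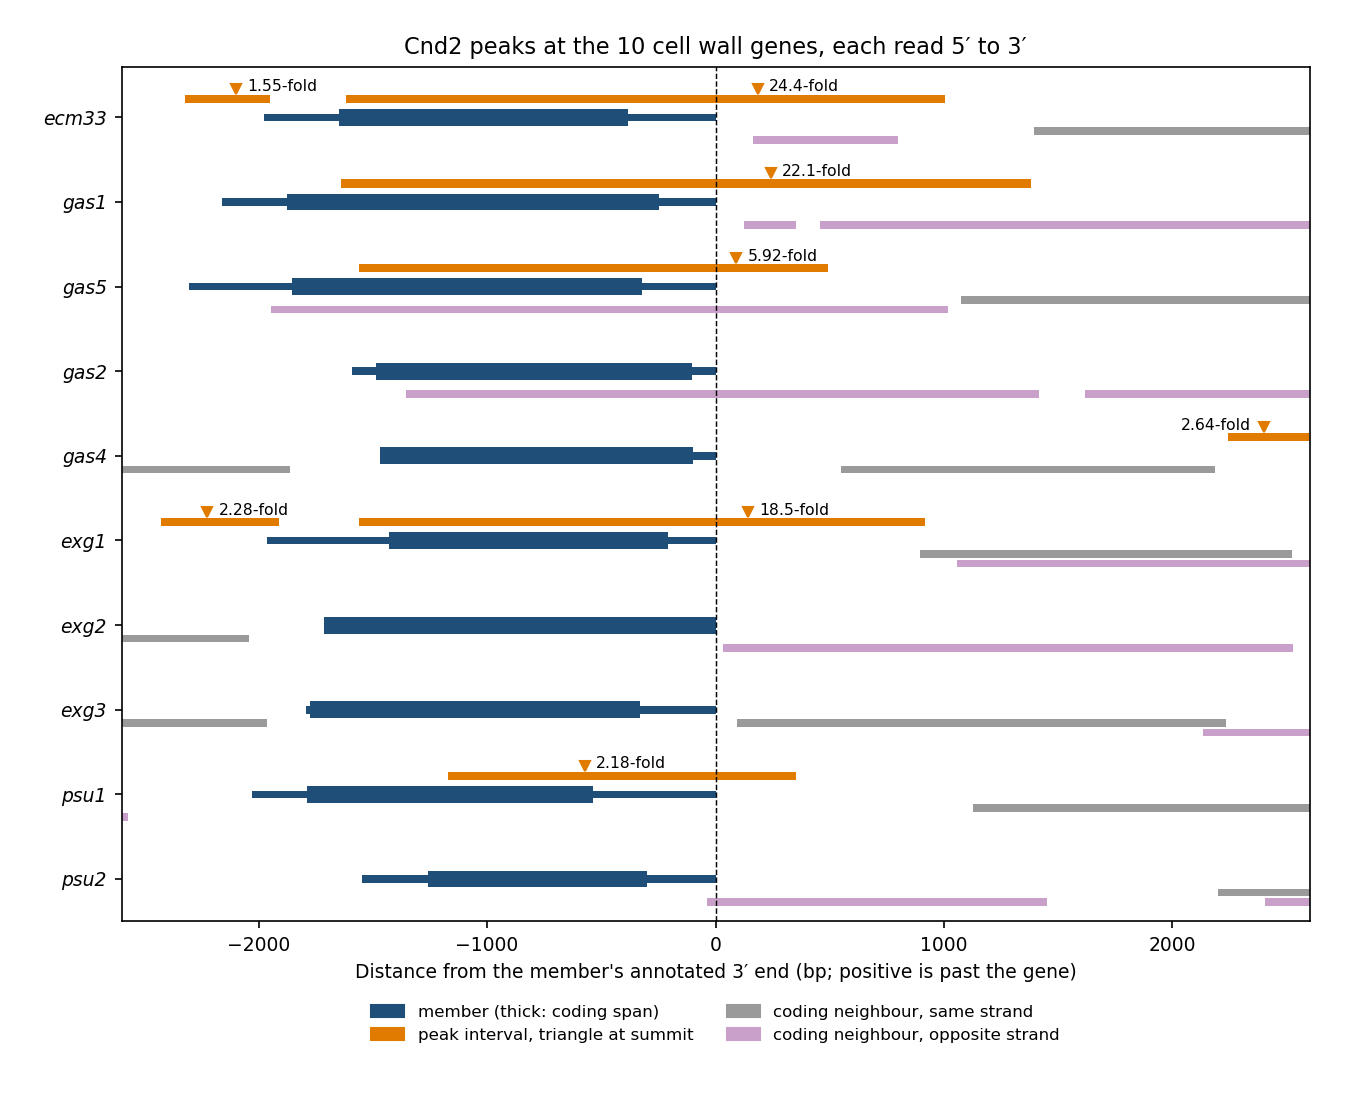
The 10 genes drawn to scale in bp and aligned at their annotated 3′ ends, each read 5′ to 3′, with coding neighbours (grey on the same strand, purple on the opposite one) and Cnd2 peak intervals in orange with a triangle and the fold at each summit. The wide peaks of ecm33, gas1, gas5, exg1 and psu1 span the 3′ end, and small peaks stand before the 5′ ends of ecm33 and exg1. The 2.64-fold peak at the edge of the gas4 row is 2402 bp away from gas4.

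ecm33 encodes the lipid-anchored wall protein (SPAC1705.03C; I:1569613-1571589 in ASM294v3, minus strand). The authors' list gives its peak at I:1568609-1571230, 2622 bp wide. At the summit 8023 ChIP fragments were piled up where the background was 328, for a fold of 24.4 (exact Poisson 95% interval 23.8 to 24.9, counting error only). The summit lay 184 bp past the 3′ end. The convergent neighbour SPAC1705.02, a gene for an uncharacterized protein, ends 163 bp from ecm33, and the summit was 20 bp inside its 3′ end. From the stop codon of ecm33 the summit was 566 bp away, because the annotated 3′ untranslated region is 382 bp long. A much smaller peak, at I:1571563-1571934, had its summit 124 bp before the 5′ end, inside the non-coding RNA gene SPNCRNA.2693, with a fold of 1.55 (1.43 to 1.68). The summits were 2284 bp apart and their folds differed by far more than counting error.

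gas1, a glucanosyltransferase gene (SPAC19B12.02C; I:4878579-4880740, minus strand), had the tallest of these peaks by pileup. Its peak at I:4877198-4880217 was 3020 bp wide and reached 8230 fragments where the background was 371, which gave a fold of 22.1 (21.6 to 22.6). By pileup it ranked 9 of 664 and the ecm33 peak 10, so these exchanged places between the measures. The summit lay 242 bp past the 3′ end of gas1 and 488 bp past its stop codon. The convergent neighbour here is cmc4, which is 125 bp away and encodes the small protein Cmc4, and the summit was inside it, 116 bp before its 3′ end. The peak also reached into ceo5, the next gene beyond cmc4, whose 3′ end was 217 bp from the summit. gas1 has bgs3, the gene of a beta-glucan synthase subunit, as its divergent neighbour 2213 bp away, and no summit stood between them.

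exg1, a glucosidase gene (SPBC1105.05; II:3514604-3516567, plus strand), was flanked by summits on both sides. The main peak at II:3515008-3517482 was 2475 bp wide with 6402 fragments over 345, a fold of 18.5 (18.04 to 18.95), and its summit was 143 bp past the 3′ end and 349 bp past the stop codon. The next coding gene, pmc4, is tandem and begins 893 bp on. The summit stood instead inside a pair of overlapping non-coding RNA genes on opposite strands, SPNCRNA.6162 and SPNCRNA.6163. A second peak at II:3514141-3514658 had its summit 262 bp before the 5′ end, in no annotated gene, with 979 fragments over 429 and a fold of 2.28 (2.14 to 2.43). The exg1 and ecm33 loci thus had the same layout, a strong summit past the 3′ end and a weak one upstream.

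gas5, also a glucanosyltransferase gene (SPAC11E3.13C; I:5306742-5309045, minus strand), carried a peak of intermediate height. It lay at I:5306248-5308301, was 2054 bp wide and had 2136 fragments over 360, a fold of 5.92 (5.67 to 6.17), rank 24. The summit was 91 bp past the 3′ end and 414 bp past the stop codon. The convergent neighbour SPAC11E3.12 overlaps gas5 by 1945 bp as annotated, so the summit was inside that gene too. The gas1 fold was 3.74 times the gas5 fold and the gas1 pileup 3.85 times the gas5 pileup, while the backgrounds were 371 and 360. The paralogues thus differed in ChIP signal over nearly equal backgrounds. Against a genome-mean background the gas5 fold was 4.97, just under 5.

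psu1, a SUN family gene whose product RefSeq names a beta-glucosidase (SPAC1002.13C; I:1821401-1823430, minus strand), differed from the others in position. Its peak at I:1821050-1822571 was 1522 bp wide with 1128 fragments over 517, a fold of 2.18 (2.05 to 2.31), rank 230. The summit was inside the gene, 572 bp before the annotated 3′ end. As the 3′ untranslated region is 535 bp long, the summit was 37 bp before the last base of the coding sequence. The neighbour on that side, ssd1, is tandem and 1128 bp away. At 4 genes the strongest summit was past the annotated end, and psu1 was the exception.

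The 5 other genes had no summit within 500 bp and no peak interval over them. Absence from the list means that no peak passed the authors' threshold there, and the coverage at these genes was not analysed here. The nearest summit was 2402 bp from gas4, a glucanosyltransferase gene of spore formation (SPBC342.03; II:4206247-4207715, plus strand). That summit, of 2.64-fold, was past the next gene and at the tRNA gene SPBTRNAASN.04. For psu2 (SPBC2G2.17C; II:3466270-3467817, minus) the nearest summit was 14.2 kb away. For gas2 (SPBC29A10.08; II:2553939-2555531, plus) it was 20.9 kb away, for exg3 (SPBC2D10.05; II:2974812-2976604, plus) 35.1 kb and for exg2 (SPAC12B10.11; I:4591855-4593567, plus) 59.003 kb. Over the 4339 coding genes with no near summit, the median distance was 8.58 kb (quartiles 3.76 and 17.2 kb). gas2, exg3 and exg2 lay beyond the upper of these quartiles.

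**Figure D2:**
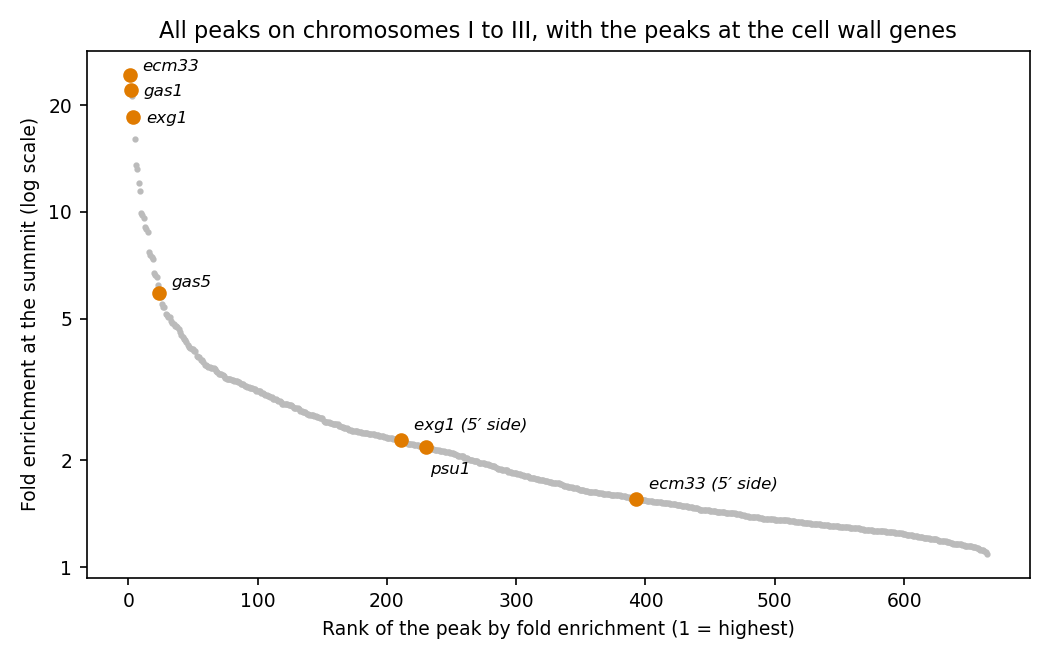
Fold enrichment at the summit (log scale) against rank for the 664 peaks on chromosomes I to III, as single points with no error bars, with the 7 peaks at the cell wall genes in orange. Those past ecm33, gas1 and exg1 lie at the top of the curve at 18.5 to 24.4-fold, gas5 stands at rank 24, and psu1 and the peaks on the 5′ side of exg1 and ecm33 lie at ranks 211 to 393.

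Set against all coding genes, the list was near summits more often, and far more often near strong ones. A summit was near 5 of the 10 genes against 15.1% of coding genes, and a peak interval overlapped 5 of 10 against 12.2%. A near summit of at least 5-fold was found at 4 of 10 against 0.724% of coding genes, and of at least 10-fold at 3 of 10 against 0.274%. The median fold of the strongest near peak was 18.5 at the 5 genes and 1.67 at the 774 coding genes near a summit, and the median pileups were 6402 and 718.5. These genes were picked with their peaks known, so the shares describe them and test nothing. Between members the folds fell into a group of 3 from 18.5 to 24.4 and lower values at gas5 and psu1. The intervals of the 3 did not overlap, but they hold counting error in the pileup only and take the background as exact. The order of ecm33 and gas1 depended on that background. By pileup gas1 was the higher, and against a genome-mean background ecm33 had 18.7-fold and gas1 19.1-fold.

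The strong summits lay close to gene ends. Within 500 bp of the 3′ end there was a summit at 4 of the 10 genes (ecm33, gas1, gas5 and exg1), against 11.6% of coding genes, and within 500 bp of the 5′ end at 2 (ecm33 and exg1), against 2.74%. The 4 strong summits were 91 to 242 bp past the 3′ end. Over the 594 coding genes with a summit this close to the 3′ end the median was 108.5 bp past it (quartiles -121 and 211 bp), and 65.0% of the summits were past the end. Requiring a summit inside the annotated gene left 1 of the 10 genes, psu1, in place of 5. With the coding sequence in place of the annotated gene, the strong ecm33 summit was out of reach at 566 bp, and the highest near fold of ecm33 became 1.55. The psu1 summit, 37 bp before the end of its coding sequence, then counted as close to the 3′ end.

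**Figure D3:**
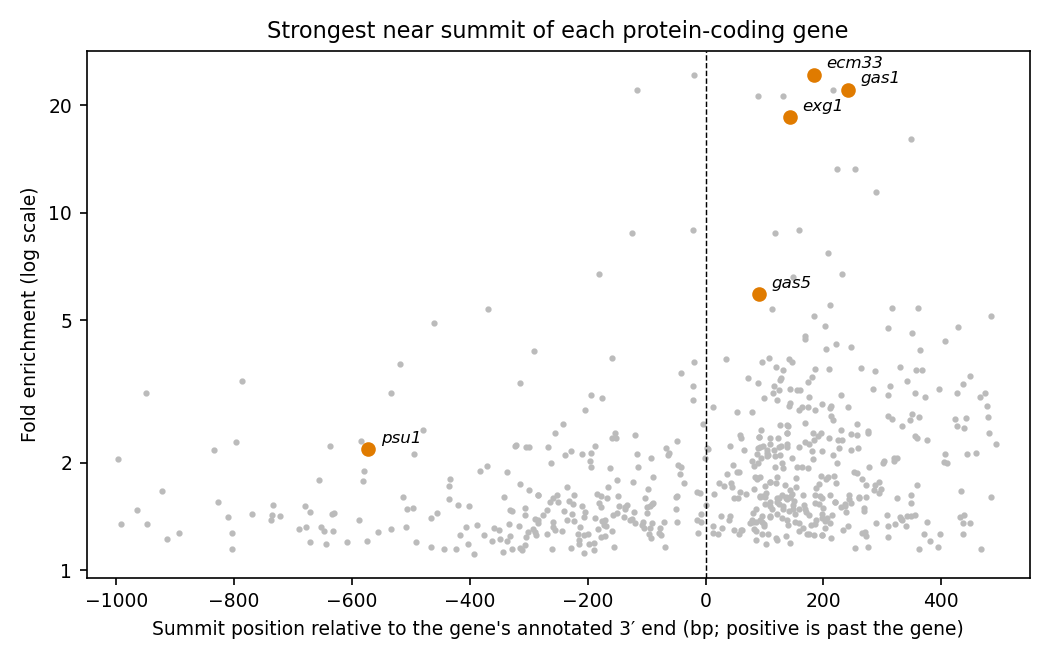
Fold enrichment (log scale) of the strongest near summit of each coding gene against its position relative to the annotated 3′ end in bp, with the cell wall genes in orange. In all 623 genes are drawn, and 151 genes with summits more than 1000 bp before the end are not drawn. A summit is drawn once for each gene near it, so neighbours repeat a fold. ecm33, gas1, exg1 and gas5 lie to the right of the 3′ end and psu1 to its left.

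Peak intervals over these genes were wide and reached from past the 3′ end through most of the coding sequence. The main peak covered 81.8% of ecm33, 79.4% of exg1, 75.8% of gas1, 67.7% of gas5 and 57.7% of psu1. Of the coding sequence it covered 97.6% at ecm33, 100% at exg1, 85.5% at gas1, 80.7% at gas5 and 50.7% at psu1. In each case it stopped short of the annotated 5′ end, by 359 bp at ecm33 and up to 859 bp at psu1. At the other end it ran 351 bp (psu1) to 1381 bp (gas1) past the gene. The 3′ end was inside a peak interval at 5 of 10 genes, against 9.09% of coding genes. At least 50% of the gene was covered at 5 of 10, against 1.82%. Across the 465 coding genes with their 3′ end in a peak, the median share covered was 21.3% (quartiles 11.8% and 37.7%). Among the 29 of these near a summit of 5-fold or more the median was 69.1%, with a range from 19.0% to 100%. These 29 include ecm33, gas1, exg1 and gas5 and some neighbours that share their peaks, and no median was taken without them. Genes at other peaks also ran from 19.0% (met1) to 100% (sod1).

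**Figure D4:**
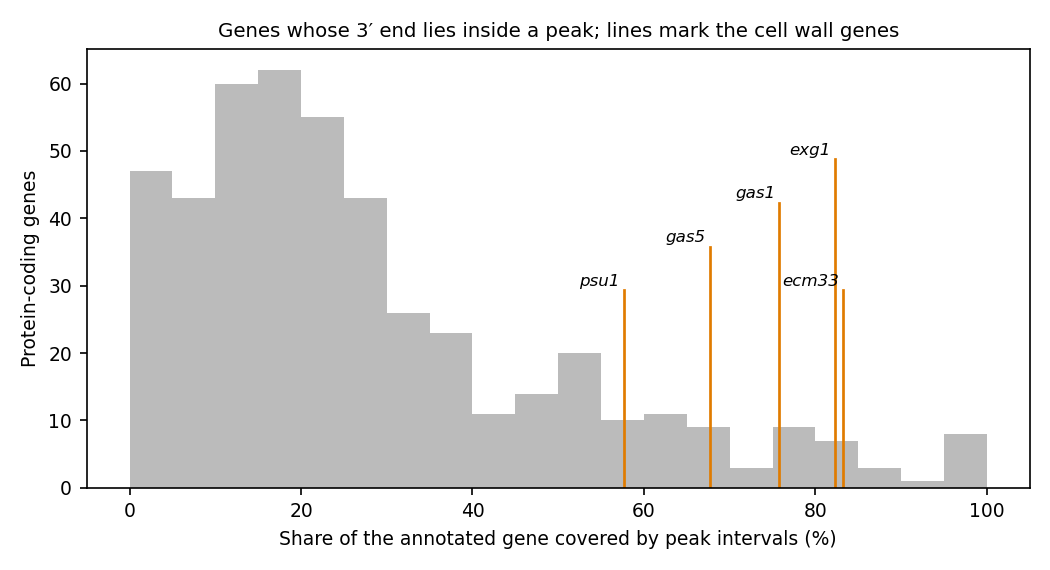
Histogram of the share of each annotated gene covered by peak intervals (%), for the 465 coding genes whose 3′ end lies in a peak, in bins of 5 percentage points. Orange lines mark the 5 cell wall genes, from psu1 at 57.7% to ecm33 at 83.2% and exg1 at 82.2% with their 5′ peaks included, all to the right of the upper quartile of 37.7%.

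The direction of the 3′ neighbour did not separate genes with a peak from those without. A convergent coding neighbour, one whose 3′ end faces the gene, was present at 3 of the 5 with a peak (ecm33, gas1 and gas5) and at 3 of the 5 without. These 3 were gas2, which tri1, a ribonuclease gene, overlaps by 1355 bp, exg2, 32 bp from the DNA repair gene rhp41, and psu2, which overlaps the mannose-6-phosphate isomerase gene mpi1 by 40 bp. The tandem cases were exg1 and psu1 with a peak, and gas4 (547 bp before rpn1301) and exg3 (93 bp before rep1) without. Only the next coding gene was classed. Beyond its start, opposite-strand genes that overlap the tandem neighbour also face exg1 (pci2, from 1058 bp past it) and exg3 (mmp1, from 2132 bp past it). Over all coding genes, 15.3% of those with a convergent neighbour had a summit this close to the 3′ end as did 7.55% of those with a tandem one. exg2 has no annotated untranslated region at either end, so its 3′ end is the stop codon in this annotation.

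The 5′ neighbours and the chromosomes differed more. All 5 genes with a peak had a divergent 5′ neighbour, at 541 bp (psu1) to 3755 bp (ecm33), with a median gap of 2233 bp. Of the 5 without, psu2 had a divergent one and 4 had a tandem one, and the median gap was 394 bp, against 486 bp over all coding genes. The gaps overlapped, since gas2 and psu2 had 1337 and 1310 bp. Across the genome these features went with little difference: a summit was near 14.2% of genes with a divergent and 16.1% with a tandem 5′ neighbour, and near 16.7% of genes with a 5′ gap of at least 500 bp and 13.7% with a shorter one. On chromosome I 4 of 5 genes were near a summit, against 13.2% of its coding genes, and on II 1 of 5, against 15.1%. The annotated genes with a peak were 1964 to 2304 bp long and those without 1469 to 1793 bp, with no overlap, against a median of 1773 bp for all. Their coding sequences did overlap in length, at 1224 to 1629 bases (median 1266) with a peak and 960 to 1713 (median 1380) without. The annotated 3′ untranslated regions had medians of 323 and 105 bp, and their ranges overlapped (206 to 535 bp with a peak, 0 to 332 bp without).

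Codon use was also compared, since genes that a yeast expresses strongly tend to favour the codons of ribosomal protein genes. The codon adaptation index, which is 1 when only the favoured codons of the 141 ribosomal protein genes are used, was computed for 4883 coding genes. The 5 genes with a peak were all above percentile 91, psu1 at percentile 97.4, gas1 and ecm33 at 95.8 and 95.7, and exg1 and gas5 at 91.6. Among those without a peak gas2 stood at 97.1, inside the same range, and psu2 at 91.5, just below it, while exg3 was at 76.7 and exg2 and gas4 at 63.4. Over all coding genes the median index was 0.460 with a summit near the 3′ end and 0.416 without one, and 0.449 and 0.415 with ribosomal protein genes left out. For the 28 genes with a 3′ summit of at least 5-fold it was 0.456. These 28 include ecm33, gas1, exg1 and gas5, and neighbours that share a peak are each counted. High codon adaptation was thus found at all 5 genes with a peak and also at gas2 and psu2 without one. The median percentile was 95.7 with a peak and 76.7 without. Expression in these cells was not analysed here.

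None of these peaks was at a tRNA or 5S rRNA gene, which RNA polymerase III reads. Condensin peaks are common at tRNA genes in this list (117 of 171 had a summit within 100 bp). Distances to other genes read by this polymerase were not taken. The nearest tRNA or 5S rRNA gene was 5.84 kb from the ecm33 summit (SPRRNA.53) and 49.6 to 156 kb from the strongest summits of psu1, gas5, gas1 and exg1. The ecm33 locus has the Tf2-2 retrotransposon on the far side of SPAC1705.02, outside the peak. The local input background was 328 to 517 at the strongest summit of each of the 5 genes, against a median of 409 over all 664, and psu1 had the highest.

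Ranked by fold at a 3′ summit, the coding genes most like ecm33, gas1 and exg1 were partly their own neighbours. The 5 highest folds outside the list were those of SPAC1705.02 (24.4), ceo5 and cmc4 (both 22.1), and SPAC343.20 and SPAC343.21 (both 21.3). The first 3 of these share the peaks of ecm33 and gas1, and which gene of a convergent pair a summit belongs to cannot be told from its position. SPAC343.20 and SPAC343.21, which encode uncharacterized proteins, share another peak, with 3′ ends 131 and 89 bp from the summit. That peak is also near rds1, the 3′ neighbour of both, and covers 67.7% of it.

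Of 37 other listed wall genes 36 were found, and 15 of them were near a summit (41.7%, against the 15.1% of coding genes given above), all 15 by a summit close to the 3′ end (500 bp or less). Their median fold was 1.99, and 2 reached 5-fold. These were eng1, whose glucanase dissolves the septum, at 13.3-fold (12.9 to 13.6) and a summit at 223 bp past the gene, and adg2, a cell separation gene, at 11.5-fold (11.2 to 11.8) and a summit at 290 bp past. adg3, also of cell separation, followed with 3.004-fold at 122 bp past. Next were bgs4, an essential beta-glucan synthase gene (2.46-fold, 276 bp past), and rgf3, an activator of the GTPase Rho1 (2.40-fold, 58 bp past). These peaks were not those of wall genes alone. The eng1 peak was shared with the convergent neighbour sod1, whose 3′ end was 254 bp from the summit. The adg2 summit was also near tpp1, and the adg3 summit was inside mak3.

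Class by class, a summit was near 4 of 9 glucan synthase genes, 1 of 4 glucanase genes, 2 of 3 cell separation genes, 2 of 6 other wall genes and 6 of 14 genes of cell integrity signalling. The synthase genes had 1.23 to 2.46-fold (bgs3, bgs1, ags1 and bgs4), so none approached gas1 or ecm33. The signalling genes had 1.15 to 2.40-fold, with rho1, which switches on beta-glucan synthesis, at 1.27 and pmk1, the MAP kinase of the pathway, at 1.29. Among all the wall genes listed, folds of at least 5 were found at ecm33, gas1, exg1, gas5, eng1 and adg2, and at no synthase or signalling gene. The lists were chosen with results known, and this order is a description of 1 library.

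**Figure D5:**
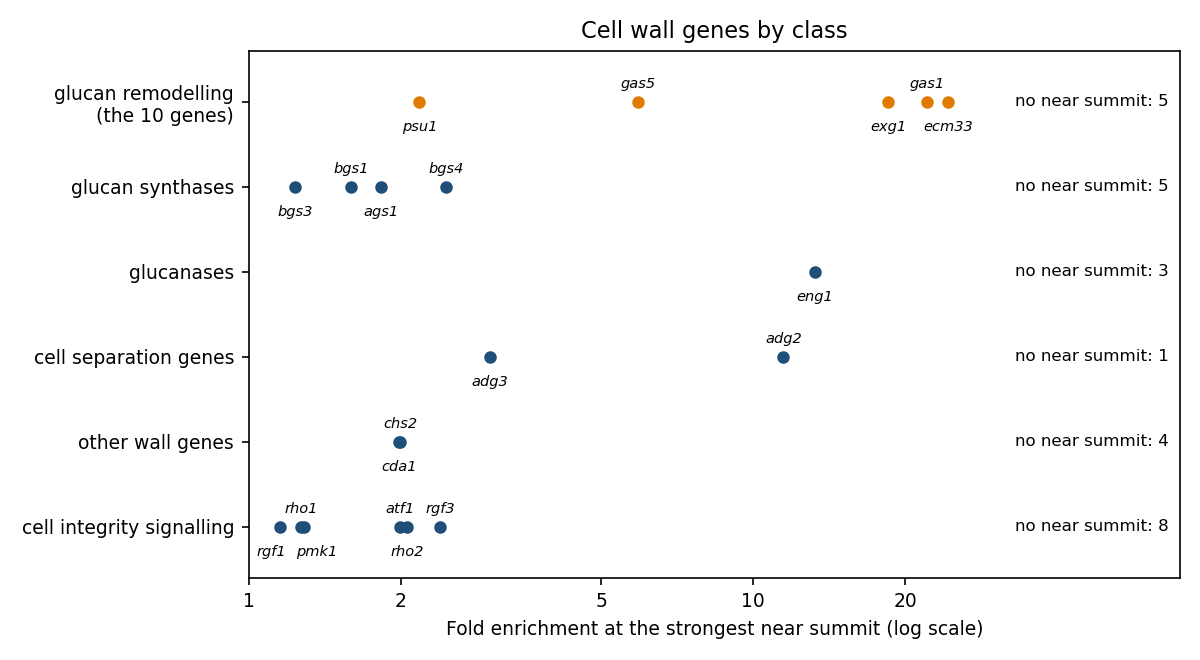
Fold enrichment (log scale) at the strongest near summit of each wall gene that had one, by class, with the number of genes without a near summit at the right. The 10 glucan remodelling genes (orange) reach 18.5 to 24.4-fold at exg1, gas1 and ecm33, while the glucan synthase genes stay at or below 2.46-fold.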

How the data were processed

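The submitters' processing notes name BWA (0.7.12), MACS2 (2.1.0) and the build ASM294v2. Per the file headers, the authors called peaks from paired-end reads of 1 ChIP library against 1 input (MACS 2.1.0.20150731), with a q cutoff of 0.05, 1 fragment kept per position (34.7% of the ChIP fragments and 10.4% of the input removed, which can lower tall peaks) and local background windows of 1000 and 10000 bp. The header gives an effective genome size of 1.87e+09 for chromosomes of 12.6 Mb, which removes the floor that the genome mean (429 fragments) would set under the background.

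In the deposited list of 668 peaks, pileup is a coverage signal in fragments and fold is a ratio of pileup to local background. The deposited −log10 p-value and −log10 q-value columns are the caller's. All were used only within the list. Dividing pileup by fold, each with the caller's pseudocount (1) allowed for, returned the background. Poisson −log10 p-values from this background were within 0.0034 of the deposited ones at 572 of the 664 peaks. The peaks with the largest −log10 p-values were left out of this check, among them the main peaks of ecm33, gas1, exg1 and gas5. Intervals are exact Poisson 95% intervals on the pileup, with the background taken as exact. Peaks on a sequence named MTR were not used.

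Genes and printed sequences came from RefSeq ASM294v3. Peak coordinates are the authors', and none were converted. As a check of the match, summits were found within 100 bp of 117 of 171 tRNA genes, against 1 to 9 after shifts of 500 to 5000 bp. Distances were taken from annotated gene ends, where a gene end without an annotated untranslated region is the coding end. Named were the 10 genes, the genes at their summits and beside them, the 5 listed wall genes of highest fold, and the 5 coding genes of highest fold at a 3′ summit. Others were named afterwards to place a summit or to give the ends of a range. Alternatives were other distances, stricter peaks, a held background, coding bounds, pileup and 50% cover. The members and lists were chosen with earlier results of these data known, and the codon index, 5′ neighbours, gene cover and base composition after seeing values. Distance code was tested on simulated data (200 of 200 planted summits recovered). Computation was in Python 3.11.15 with pandas 2.3.3, scipy 1.17.1, numpy 2.4.6, Biopython 1.88 and matplotlib 3.10.9.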

Additional observations from a re-analysis of the deposited data

How the results depend on the processing

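Of 72 values under the alternatives, 59 stayed within 1.5 times (counts) or within the counting interval (folds), and 13 did not. This tally is no measure of stability. Under other distances and stricter peaks, the fold at a gene is the same deposited value as long as its peak is kept. A gene that lost its near summit gave no fold and was left out. The median pileup, in other units than fold, was counted as moved by rule. With a summit inside the annotated gene required, 1 of the 10 genes was near a summit, the median fold was 2.18, 0 genes had 5-fold and 7 of the other wall genes were near. With coding bounds the median fold was 5.92 and 8 other wall genes were near. Against a genome-mean background the median fold was 14.9, with ecm33 at 18.7, gas1 at 19.1, exg1 at 14.9 and gas5 at 4.97, so that gas5 was just under 5-fold. There ecm33 had rank 3 and gas1 rank 2. In place of the median fold, the median pileup was 6402. The counts of genes near a summit (5) were the same at 250 and 1000 bp, with peaks at or above the median fold, with −log10 q of at least 10, with the held background and with coding bounds. Duplicate removal limits the tallest peaks by an amount not measured here. No paired analysis was possible because each group has 1 library and no test was made.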
